A study of Mus musculus with 6 samples.

Results

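Complement C3 and 8 further complement genes that are expressed outside microglia (C4b, Cfb, C1ra, C1s1, Serping1, Cd59a, C2 and Clu) were examined in neurospheres grown from the stem and progenitor cells (NSC/NPCs) of the fetal mouse hypothalamus, and all 9 were found among the 22048 genes of the deposited table. The genes were chosen on the difference between groups that earlier work had shown in these same samples, where C3 was among the mRNAs with the largest decreases. The differences between groups are therefore given for these 9 genes as a description and without a test. There were 3 NC and 3 HE samples of male C57BL/6 fetuses, each pooling the cells of 2 mice. HE dams, pregnant at 8 weeks of age, received estradiol valerate by gavage at 100 μg/kg/d from E5.5 to E11.5, and NC dams received corn oil, although the labels call the NC samples untreated. Hypothalami were taken at E14.5 in both groups, and the cells were grown with B27 and with 10 ng/ml each of EGF and bFGF and harvested at first passage. The expression values thus describe cultured cells some days after the exposure of the dam had ended. Whether the pooled mice shared a litter is not given in the sources used here, so the spread between samples may include litter effects.

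Complement is a cascade of secreted proteins of innate immunity, best known from blood, where most of them come from the liver. In the brain, astrocytes, microglia and cells of the vessels and meninges also make them, and complement proteins are known for tagging synapses and debris for removal. The classical pathway starts with C1, in which C1q carries the proteases C1r and C1s. C1s cuts C4 and C2 to form a convertase that cleaves C3, and factor B (Cfb) forms the convertase of the alternative pathway. Serping1, Cd59a and Clu are inhibitors at different steps. Interferons and NF-kB are known to raise the transcription of C3, C4, factor B and C1 inhibitor in many cell types.

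Levels are in RPKM, reads per kilobase of gene length scaled to the size of the library, so that they can be compared between genes. The gene counts of a sample summed to 16078675 to 19137059 reads, and 1 read on a gene of 1 kilobase was worth 0.0523 to 0.0622 RPKM. Fold differences are on the scale of log2(RPKM + 0.1), HE minus NC, with the standard error (SE) of a limma fit over all genes, and this scale understates the differences of genes at low levels. Of the 13952 genes that passed the filter on low counts, 0 (0%) had an adjusted p-value under 0.05 in limma with a log2 difference of at least 1, while 2858 were under an unadjusted p of 0.05. The study's own test with DESeq2 called mRNAs in both directions at these cutoffs, so the 0 holds for the limma fit. Of the 9 genes, 8 passed the filter on low counts, all but Cfb.

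C3, the central component from which C3a and C3b are cut, showed the widest range. It was at 52.4 RPKM in NC1, 34.8 RPKM in NC2 and 1.83 RPKM in NC3, against 0.836, 0.724 and 0.847 RPKM in HE1, HE2 and HE3. These levels rest on 5061, 3422 and 178 reads in the NC samples and on 77, 71 and 70 reads in the HE samples. All HE values lay below all NC values, the HE samples were nearly equal, and NC3 stood far closer to HE than to the other NC samples. The NC mean was 29.7 ± 25.7 RPKM and the HE mean 0.802 ± 0.068 RPKM (± SD over 3 samples), a log2 difference of -4.08 (SE 1.13). The mean of NC1 and NC2 was 23.9 times the level of NC3, whereas NC3 was 2.28 times the HE mean. Without NC3 the log2 difference was -5.57.

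C3 lies on chromosome 17 from 57203967 to 57228136 (GRCm38.p6, the assembly that mm10 names) and is annotated as protein-coding. The 250 bases before its start are shown because C3 varied most among the 9 genes. They come from RefSeq and are read 5′ to 3′ on the strand of the gene, with matches to the interferon, NF-kB and C/EBP motifs named after it in capitals.
C3, chr17:57228137-57228386 (minus strand): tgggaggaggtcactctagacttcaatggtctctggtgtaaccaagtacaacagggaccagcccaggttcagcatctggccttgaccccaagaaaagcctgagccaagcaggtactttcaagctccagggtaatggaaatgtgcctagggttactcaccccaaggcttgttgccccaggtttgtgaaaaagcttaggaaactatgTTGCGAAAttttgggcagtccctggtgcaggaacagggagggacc
The motifs were searched on both strands as TTCNNNGAA (GAS), GAAANNGAA (core of the interferon-stimulated response element), GGANTTTCC (core of an NF-kB site) and TTGCNNAA (C/EBP), and GGTCA was searched as a half-site of the estrogen response element. The window of C3 held 1 C/EBP match, TTGCGAAA, 45 to 38 bases before the start, and 2 half-sites GGTCA, which are not in capitals. It held no match to the GAS, response element or NF-kB letters. Of the 32851 promoter windows of this length in the RefSeq table, 9.56% held the C/EBP letters, 35.2% the half-site, 7.02% the GAS letters, 7.13% the response element core and 1.07% the NF-kB core. Windows were available for 4 of the 9 genes, and the other genes are described without one.

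**Figure D1:**
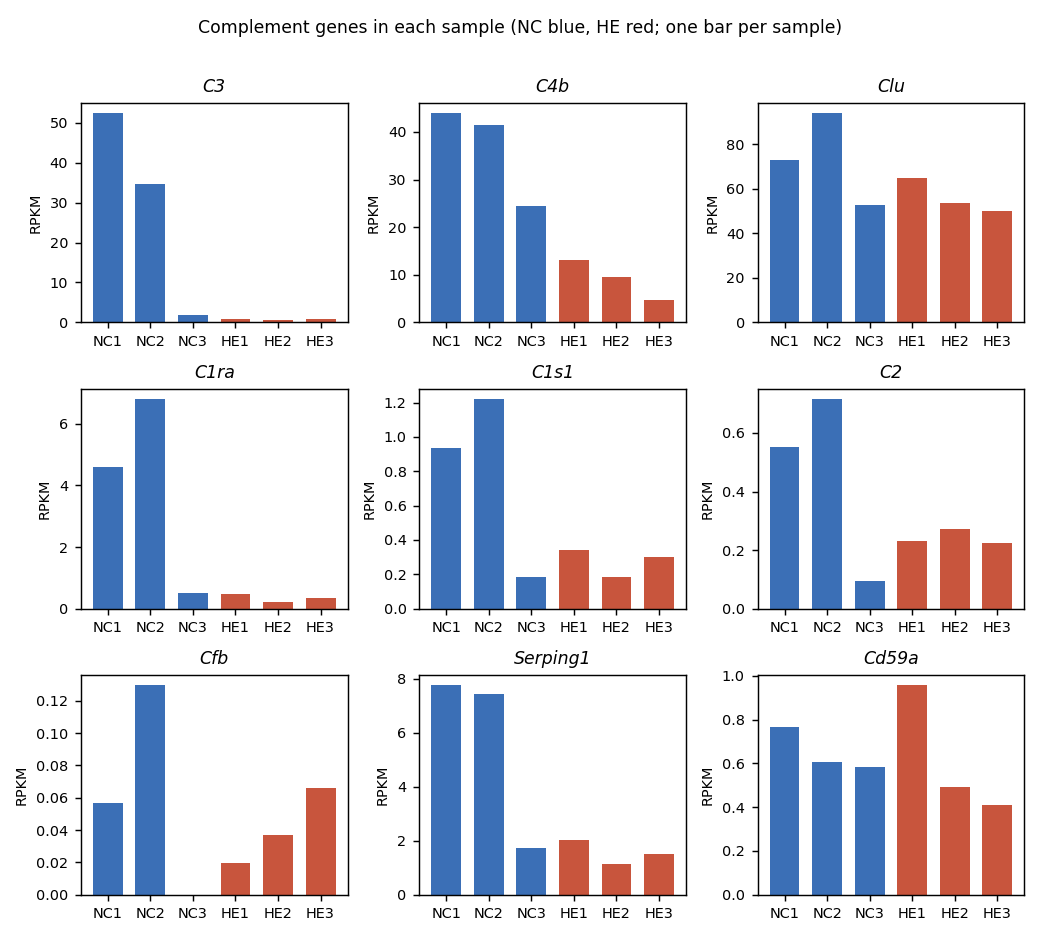
RPKM (y axis, from 0, a separate scale for each gene) of the 9 complement genes in the 3 NC samples (blue) and the 3 HE samples (red), with 1 bar per sample. C3, C1ra, C1s1, C2 and Serping1 are high in NC1 and NC2 and low in NC3 and all HE samples. C4b is intermediate in NC3 at 24.4 RPKM, and the group means of Clu and Cd59a differ little beside those of C3.

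The partners of C3 in the convertases differed in level and in pattern. C4b, the C4 protein that is cut by C1s and attaches to surfaces like C3b, was at 44.0, 41.4 and 24.4 RPKM in NC1, NC2 and NC3 and at 13.2, 9.44 and 4.64 RPKM in HE1, HE2 and HE3. All HE samples lay below all NC samples, and NC3 was closer to the other NC samples than to HE. The NC mean was 36.6 ± 10.7 RPKM and the HE mean 9.09 ± 4.28 RPKM (± SD over 3 samples), with a log2 difference of -2.07 (SE 0.39). C4b was the only one of the 9 genes in which NC3 lay nearer to NC1 and NC2 than to the HE mean. Its near-identical copy C4a, which RefSeq annotates as a transcribed pseudogene on the same chromosome, was not analysed here, and reads of both genes could be shared.

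C2, the protease that joins C4b in the classical convertase, was at low levels of 0.550, 0.715 and 0.0954 RPKM in NC1, NC2 and NC3. In HE1, HE2 and HE3 it was at 0.231, 0.271 and 0.225 RPKM, so NC3 had the lowest value of all and the groups overlap. The 7 reads in NC3 give an exact Poisson interval (95%) of 0.0384 to 0.197 RPKM, which covers counting error only, and the 14 to 20 reads in HE give intervals that overlap it. The log2 difference was -0.46 (SE 0.52), and without NC3, where HE lay below the other NC samples, it was -1.09.

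Cfb, whose gene begins 87 bases from C2 on chromosome 17, was close to the detection limit in these cells. It had 3, 7 and 0 reads in NC1, NC2 and NC3 and 1, 2 and 3 reads in HE1, HE2 and HE3, which is at most 0.129 RPKM. The 0 reads in NC3 allow a level of up to 0.0561 RPKM, taking 3 reads as the limit for a count of 0 (counting error only), and the exact Poisson interval (95%) used for C2 reaches 0.0689 RPKM. At this depth no difference was detectable for Cfb. The protease of the alternative pathway was thus near 0 in samples in which C3 itself reached 52.4 RPKM.

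C1ra and C1s1, the proteases of the C1 complex, are neighbours on chromosome 6 with 6903 bases between them. C1ra was at 4.59, 6.80 and 0.514 RPKM in NC1, NC2 and NC3 and at 0.487, 0.229 and 0.355 RPKM in HE1, HE2 and HE3. The groups do not overlap, but NC3 exceeded HE1 by only 29 reads against 26. The NC mean was 3.97 ± 3.19 RPKM and the HE mean 0.357 ± 0.129 RPKM (± SD over 3 samples), with a log2 difference of -2.61 (SE 0.84) that was -3.68 without NC3. C1s1 was at a lower level, also highest in NC2 and NC1, with 0.937, 1.22 and 0.186 RPKM in NC1, NC2 and NC3 and 0.339, 0.184 and 0.298 RPKM in HE1, HE2 and HE3. Here NC3 lay within the HE range, and the log2 difference was -0.99 (SE 0.56). The level of C1ra was 4.90, 5.58 and 2.77 times that of C1s1 in NC1, NC2 and NC3. In HE1, HE2 and HE3 it was 1.44, 1.24 and 1.19 times that of C1s1. The ratios of NC3 and HE are imprecise, since C1s1 had 11 reads in NC3 and 19, 11 and 15 in HE1, HE2 and HE3. Within this limit both proteases came closer in level where C1ra was low. Their copies C1rb and C1s2 had at most 2 and 6 reads in any sample, so few reads were assigned to them.

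The windows before C1ra and C1s1 are shown because these neighbours had nearly the same pattern over the samples. For C1s1 the upstream one of its 2 windows in the RefSeq promoter table is given, and its last 33 bases lie within the annotated bounds of the gene.
C1ra, chr6:124512371-124512620 (plus strand): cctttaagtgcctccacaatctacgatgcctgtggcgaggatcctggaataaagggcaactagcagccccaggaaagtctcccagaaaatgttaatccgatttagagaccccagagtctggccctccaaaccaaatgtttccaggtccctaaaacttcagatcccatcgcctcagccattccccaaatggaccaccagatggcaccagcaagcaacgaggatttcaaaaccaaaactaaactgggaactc
C1s1, chr6:124542360-124542609 (minus strand): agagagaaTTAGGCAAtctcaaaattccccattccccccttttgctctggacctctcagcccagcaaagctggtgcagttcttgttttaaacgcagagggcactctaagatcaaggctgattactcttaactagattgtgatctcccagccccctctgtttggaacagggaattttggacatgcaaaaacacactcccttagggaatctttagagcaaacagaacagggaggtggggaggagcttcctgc
Neither window held a match to the GAS, response element, NF-kB or half-site letters. That of C1s1 held 1 C/EBP match, TTAGGCAA, 242 to 235 bases before the transcript start that follows the window. The other window of C1s1, which is not shown, held no match to any of the motifs searched.

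Among the inhibitors, Serping1 had the pattern of the C1 proteases that its product, the C1 inhibitor, blocks. It was at 7.75, 7.44 and 1.75 RPKM in NC1, NC2 and NC3 and at 2.02, 1.15 and 1.52 RPKM in HE1, HE2 and HE3. NC3 lay below HE1, so the groups overlap through 1 sample. The NC mean was 5.64 ± 3.38 RPKM and the HE mean 1.56 ± 0.435 RPKM (± SD over 3 samples), a log2 difference of -1.56 (SE 0.55), or -2.24 without NC3. Clu, a secreted chaperone that also binds the terminal complex, was the most abundant of the 9 genes at 72.9, 93.9 and 52.5 RPKM in NC1, NC2 and NC3 and 65.0, 53.4 and 49.9 RPKM in HE1, HE2 and HE3. Its groups overlap, since NC3 lay below HE1 and HE2, and the log2 difference of -0.35 (SE 0.22) was small beside that of C3. NC1 and NC2 lay above all HE samples for Clu, and without NC3 its log2 difference was -0.57.

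Cd59a, the membrane inhibitor of the terminal pore, differed little. It was at 0.765, 0.606 and 0.583 RPKM in NC1, NC2 and NC3 and at 0.956, 0.492 and 0.412 RPKM in HE1, HE2 and HE3, and the HE samples spanned the NC samples. The log2 difference was -0.13 (SE 0.31) on 12 to 31 reads per sample. Its neighbour and paralog Cd59b, 9962 bases away on chromosome 2, had a log2 difference of 0.05 (SE 0.43, adjusted p = 0.945 in limma), and its sign depended on single samples. The window before Cd59a is shown as that of a member with little difference between the group means. It held 1 match to the response element core, GAAAGGGAA, 187 to 179 bases before the transcript start that follows the window, and none to the other letters. The last 48 bases of this window lie within the annotated bounds of the gene.
Cd59a, chr2:104095551-104095800 (plus strand): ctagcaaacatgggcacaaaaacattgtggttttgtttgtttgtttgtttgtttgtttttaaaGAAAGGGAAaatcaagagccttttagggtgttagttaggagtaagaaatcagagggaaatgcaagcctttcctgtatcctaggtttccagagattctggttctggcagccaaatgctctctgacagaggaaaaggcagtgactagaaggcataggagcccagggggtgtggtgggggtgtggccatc

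The order of levels changed between the groups. By the group mean the order in NC was Clu, C4b, C3, Serping1, C1ra, C1s1, Cd59a, C2 and Cfb, and Clu was the only gene whose range (52.5 to 93.9 RPKM) stood apart from that of the next. From C4b downward the ranges of neighbours overlapped in NC, where NC3 lay at the lower end for each of them. In HE the order was Clu, C4b, Serping1, C3, Cd59a, C1ra, C1s1, C2 and Cfb. There the ranges of Clu, C4b, Serping1 and C3 were apart from each other, those from C3 to C2 overlapped from one gene to the next, and Cfb stood below all. C3 thus moved from the third to the fourth place, behind Serping1.

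Ratios within a sample do not depend on the scaling between samples. C3 was at 1.19 and 0.840 times the RPKM of C4b in NC1 and NC2, but at 0.075 times in NC3 and at 0.0634, 0.0767 and 0.182 times in HE1, HE2 and HE3. NC3 lay within the HE range for this ratio. For C4b against Clu the picture was another, with ratios of 0.603, 0.441 and 0.464 in NC1, NC2 and NC3 and 0.203, 0.177 and 0.093 in HE1, HE2 and HE3, where all NC samples were above all HE samples. Leaving out Clu, C3 made up 47.2% and 37.4% of the summed RPKM of the other genes in NC1 and NC2, 6.23% in NC3 and 4.63% to 10.1% in HE.

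**Figure D2:**
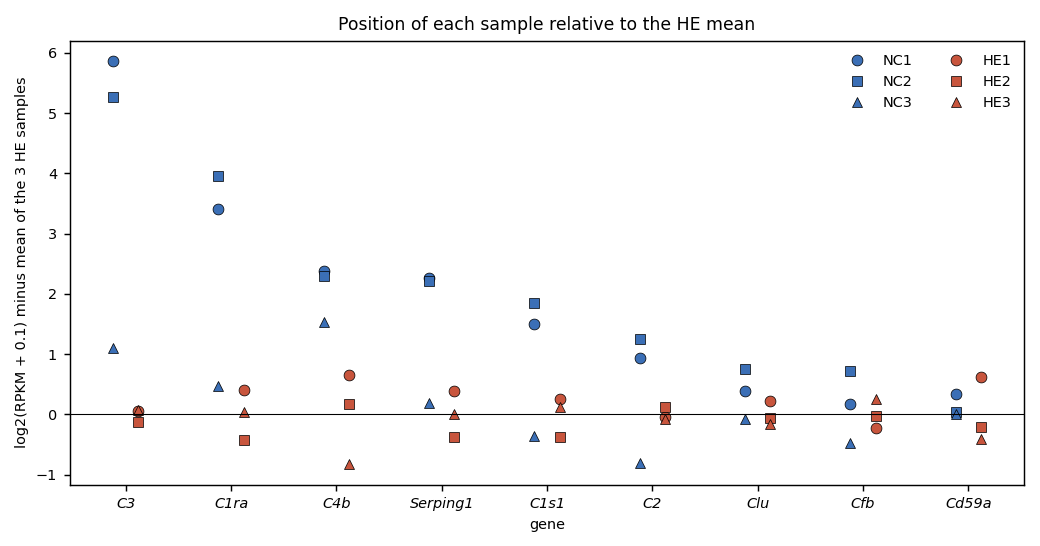
Each sample's log2(RPKM + 0.1) minus the mean of the 3 HE samples (y axis) for the 9 complement genes (x axis), with NC in blue, HE in red and the sample number given by the symbol. NC1 and NC2 stand above HE for C3, C1ra, C4b, Serping1, C1s1, C2 and, by less, Clu. NC3 (blue triangle) lies near 0 or below for all genes but C3, C1ra and C4b.

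Over the 9 genes, the median log2 difference was -0.99, beside -0.06 over all genes tested. All 9 had a difference below 0, and in 4 (C3, C1ra, C4b and Serping1) it was -1 or less, as in 3.66% of all genes tested. In 3 genes (C3, C4b and C1ra) all HE values lay below all NC values, which was so for 17.9% of all genes tested, and in 0 they lay above, which was so for 14.8%. As the genes were chosen on this contrast, nothing is read from these shares. In 8 of the 9 genes NC3 lay nearer to the HE mean than to the mean of NC1 and NC2 on the log2 scale, as in 37.8% of all genes tested. This measure was set after the values had been seen, and for Cfb it rests on 0 reads. Without NC3, 7 of the 9 genes were lower in HE with groups that do not overlap, beside 26.1% of all genes tested, and without HE1 5 were, beside 25.9%. With 2 samples in a group more genes are apart by construction.

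Within the groups, the genes varied together to differing degrees. After the group means were subtracted, the log2 values of C3 had a Pearson correlation over the 6 samples of 0.96 with Serping1, 0.96 with C2, 0.95 with C1ra and 0.94 with C1s1. It was 0.77 with Clu, 0.51 with C4b and 0.23 with Cd59a. C1ra and C1s1 had a correlation of 0.997 by this measure. These values describe 6 samples that share libraries and 2 group means, and for C3 they rest mainly on the distance of NC3 from NC1 and NC2.

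The genes of the wider pathway were examined in a list of 50 further complement genes, of which 49 were in the table and 21 passed the filter. In limma 0 of the 21 were called at an adjusted p-value under 0.05, the lowest being 0.195, and voom on the read counts also called 0. At an unadjusted p below 0.05, 2 were lower and 4 higher in HE in limma (6 in all in voom), where 11.8% of all genes tested were lower and 8.68% higher. The 4 include C1qb, which entered the test only because it was high in HE, so that 3 remain without it. The median log2 difference of the 21 was 0.05, beside -0.06 over all genes tested. It is not set against the median of the 9 genes, which were chosen on this contrast. NC3 was nearer to HE in 9 of the 21, beside 37.8% of all genes tested, by the measure set after the values had been seen.

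Of the 15 listed genes of initiation, 6 were tested and 2 had an unadjusted p below 0.05, both higher in HE. The difference of C1qb is given without a p-value, since it passed the filter only through the HE samples. C1qb, a chain of C1q and a marker of microglia, had 2, 0 and 0 reads in NC1, NC2 and NC3 and 22, 12 and 35 reads in HE1, HE2 and HE3, with a log2 difference of 3.26 (SE 0.47) that depends on the pseudocount. C1qa, with 0, 0 and 1 reads in NC and 18, 5 and 53 in HE, and C1qc, with 1, 0 and 1 reads in NC and 25, 6 and 32 in HE, did not pass the filter. In each C1q chain all HE values lay above all NC values, as in 14.8% of all genes tested, and none exceeded 3.17 RPKM. The NC samples held at most 2 reads of a chain and no chain passed the filter through NC, so nothing is read from this. Masp1, the lectin pathway protease related to C1r and C1s, was at 1.36, 1.22 and 1.73 RPKM in NC1, NC2 and NC3 and at 2.56, 4.06 and 8.23 RPKM in HE1, HE2 and HE3. Its log2 difference was 1.57 (SE 0.40, adjusted p = 0.195 in limma), and HE and NC did not overlap.

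Of 15 listed regulators 9 were tested, with 1 lower and 1 higher in HE at an unadjusted p below 0.05. Vtn, vitronectin, which is also a matrix protein and a pericyte marker, was at 0.840, 0.952 and 3.80 RPKM in NC1, NC2 and NC3 and at 8.20, 8.52 and 8.12 RPKM in HE1, HE2 and HE3. All HE values were above NC, and NC3 was again the NC sample nearest to HE, here from below. The log2 difference was 2.42 (SE 0.51, adjusted p = 0.195 in limma), and without NC3 Vtn passed the adjusted threshold with 3.07. Csmd1, a membrane inhibitor of the cascade in neural cells, was lower in HE, at 1.87, 2.82 and 1.26 RPKM in NC1, NC2 and NC3 against 0.839, 0.769 and 0.405 RPKM in HE1, HE2 and HE3 (log2 difference -1.42, SE 0.36, adjusted p = 0.195 in limma).

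Of the 3 listed genes of C4 and the alternative pathway, Cfp alone was tested. Cfp, properdin, which stabilizes the alternative convertase, had an NC mean of 4.22 ± 0.164 RPKM and an HE mean of 3.13 ± 0.395 RPKM (± SD over 3 samples, log2 difference -0.43, SE 0.15, adjusted p = 0.209 in limma). All HE values were below all NC values, and here NC3 lay with the other NC samples. Of 7 terminal components 2 were tested and none had an unadjusted p below 0.05, and of 10 receptors 3 were tested. Among these Cd93, named because it was the 1 receptor under this p-value, was at 2.54, 0.923 and 6.02 RPKM in NC1, NC2 and NC3 and at 5.33 to 8.96 RPKM in HE, with overlapping groups (log2 difference 1.41, adjusted p = 0.241 in limma).

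**Figure D3:**
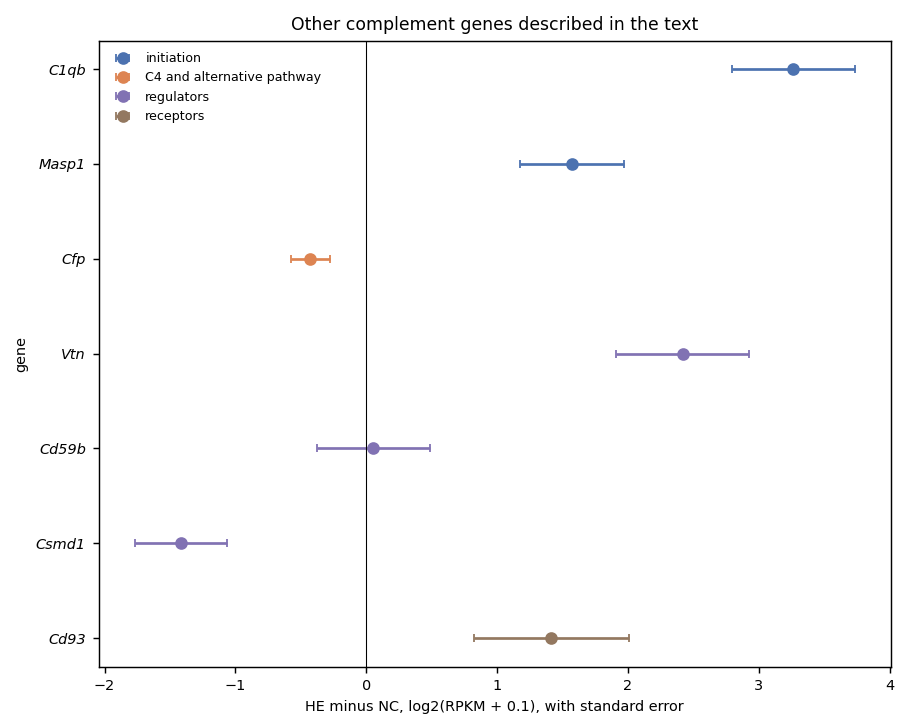
Log2 difference of HE minus NC on the scale of log2(RPKM + 0.1) (x axis) with its standard error (bars) for 7 of the 21 other complement genes that passed the filter, those described in the text (y axis), coloured by role. C1qb, Vtn, Masp1 and Cd93 lie to the right of 0, Csmd1 and Cfp to the left and Cd59b near 0, and the lowest adjusted p of limma was 0.195.

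The genes whose level over the 6 samples was most like that of C3 were ranked by Pearson's r of log2(RPKM + 0.1), among 11502 tested genes with a mean of at least 1 RPKM. They were Csf1, H2-Q7, Relb, Ly6e and Dalrd3, with r of 0.994 to 0.989, and 120 genes had an r over 0.95. After subtracting the group means the first 5 were Ly6e, Fam189a2, Tnip1, Csf1 and Bcl10, with r of 0.997 to 0.985. Csf1 was at 18.2, 18.6 and 10.1 RPKM in NC1, NC2 and NC3 and at 9.22, 8.76 and 9.50 RPKM in HE1, HE2 and HE3. H2-Q7, an MHC class I gene with close paralogs that could share reads, was at 17.6, 17.7 and 2.83 RPKM in NC1, NC2 and NC3 and at 1.93, 2.45 and 1.88 RPKM in HE1, HE2 and HE3. All of these genes share with C3 high values in NC1 and NC2 and a step down to NC3, but over a narrower range of levels.

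Lists of genes known to respond to interferon and to NF-kB, which also regulate complement genes, were read in the same samples. The sums of both lists were highest in NC1 and NC2, although not every gene of the NF-kB list followed its sum. The 19 interferon-induced genes in the table, from Ifi44 (the lowest) to Bst2 (the highest), summed to 677 and 1134 RPKM in NC1 and NC2, to 78.3 RPKM in NC3 and to 63.9, 53.3 and 42.9 RPKM in HE1, HE2 and HE3. Of 17 tested, NC3 was nearer to HE in 17, beside 37.8% of all genes tested. In limma 16 were lower in HE at an unadjusted p below 0.05, beside 11.8% of all genes tested, and 0 passed the adjusted threshold. The 16 genes of NF-kB and the acute phase, from Il6 to Nfkbia, summed to 659 and 926 RPKM in NC1 and NC2, 324 RPKM in NC3 and 300, 285 and 189 RPKM in HE1, HE2 and HE3. Of 14 tested, 9 were lower in HE at an unadjusted p below 0.05, 0 were called, and NC3 was nearer to HE in 12. Both lists were written with earlier results of these data known, and the measure of NC3 was set after the values had been seen. Nothing is therefore read from these counts. The part of these programmes in the complement values was not tested.

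**Figure D4:**
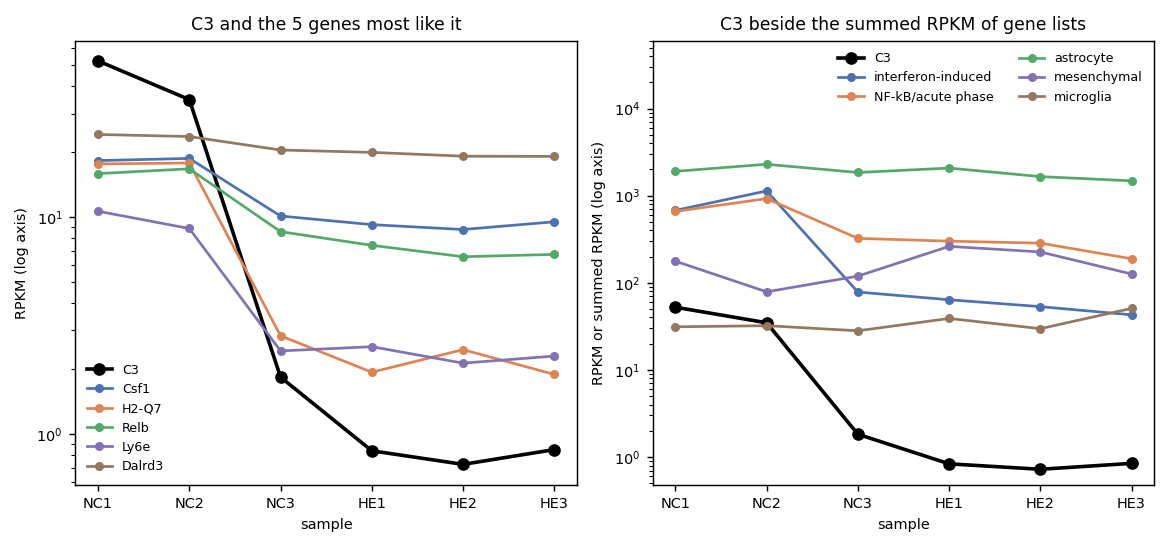
RPKM on a log axis in each sample (x axis), with lines joining the values of one gene or list and no order among samples of a group. Left, C3 (black) and the 5 genes most like it. Right, C3 beside the summed RPKM of lists, where the interferon-induced list drops from 1134 RPKM in NC2 to 78.3 RPKM in NC3. The sum of the astrocyte list lies between 1479 and 2293 RPKM, but its genes do not all differ in the same direction.

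Several cell types that make complement proteins could be present in neurospheres, so their markers were read in the same samples. Astrocyte markers were abundant, with a sum of 1845 to 2293 RPKM in NC and 1479 to 2074 RPKM in HE over 10 genes, from S100b to Aldh1l1. Of the 10, 1 was lower and 2 higher in HE at an unadjusted p below 0.05 in limma. Of all genes tested, 11.8% were lower and 8.68% higher at this p-value. The 14 mesenchymal and perivascular markers, from Rgs5 to Col3a1, summed to 78.8 to 177 RPKM in NC and 126 to 262 RPKM in HE. The 5 of 13 tested genes under this p-value were higher in HE, and 1 of them is Vtn, which is also listed among the complement regulators. The sum of the 14 markers was 177, 78.8 and 119 RPKM in NC1, NC2 and NC3. The 14 microglia and macrophage markers, with Ptprc as the lowest, summed to 28.1 to 32.2 RPKM in NC and 29.8 to 50.8 RPKM in HE, with 1 of 7 tested lower and 2 higher. Ptprc, which defines leukocytes, was at 0 to 0.0543 RPKM over the samples.

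Endothelial markers were low, with sums of 3.0 to 4.13 RPKM in NC and 4.85 to 6.45 RPKM in HE over 10 genes from Emcn to Flt1, and 2 of 5 tested were higher in HE at an unadjusted p below 0.05. Choroid plexus and ependymal markers, from Kl to Ttr, ranged widely in both groups, from 111 to 237 RPKM in NC and from 35.2 to 452 RPKM in HE, with 1 of 6 tested lower. Neural progenitor markers, which define the cultures, summed to 2908 to 3606 RPKM in NC and 2857 to 4546 RPKM in HE, led by Vim and with Pax6 as the lowest, and 2 of 10 were lower. Neuronal markers, from Rbfox3 to Gap43, summed to 120 to 154 RPKM in NC and 138 to 272 RPKM in HE, with 2 of 10 higher. Oligodendrocyte lineage markers, from Enpp6 to Olig1, summed to 291 to 321 RPKM in NC and 315 to 515 RPKM in HE, with 0 of 8 under this p-value. In 0 of these lists was a gene called at an adjusted p-value under 0.05 in limma. In bulk samples fewer cells of a type and less RNA per cell cannot be told apart, and the part of cell composition in the complement values was not tested.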

How the data were processed

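RNA-Seq was available for 3 NC and 3 HE samples of NSC/NPCs. After removal of poor reads and adaptors, the authors used TopHat2 with mm10 and obtained counts per gene (the submitters' processing notes also name CASAVA 1.7), and the counting tool, annotation and use of strand are not given in the sources used here. The deposited table holds read counts, not normalized, and RPKM by the authors, which equalled reads divided by the length of the gene and the total over genes within 4.99e-07. The main test was on RPKM, and the read counts served for the filter, the detection limits and voom, while DESeq2, which the study used, was not run. Gene symbols were found for 21781 of 22048 identifiers.

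Values were transformed to log2(RPKM + 0.1) and fitted in limma 3.58.1 (R 4.3.3, trend option on), with group as the only term and Benjamini-Hochberg adjustment over all 13952 genes tested. Genes entered the fit if 3 or more samples met a threshold equal to 10 reads at the median library size, and if their reads over all samples came to 15 or more. The fit was tested on simulated data before use. These data had the same dispersion for every gene and no sample set apart, so they do not give the power in the real samples. The 9 genes, the gene lists and the tests were chosen with earlier results of these data known. Of the other complement genes, those named were paralogs, the C1q chains and genes with an unadjusted p-value under 0.05 and groups that do not overlap. The genes most like C3 were the first 5 by r, and of each marker list the highest and the lowest are named. Cd93 was named beyond this rule, after its values were seen, and 1 marker that the rule selects is not reported here. Promoter windows and coordinates are from RefSeq (GRCm38.p6). Alternatives were a pseudocount of 1, median-of-ratios scaling, other filters, the replicate block, leaving out each sample and voom on the read counts. p-values set each group difference against the spread between these samples only, with the variance of each gene moderated over all genes tested.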

Additional observations from a re-analysis of the deposited data

How the results depend on the processing

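The number of all genes called stayed at 0 with a pseudocount of 1, median-of-ratios scaling, both other filters, the replicate block and voom on the read counts, and ranged from 0 to 101 when 1 sample was left out, with 101 without NC3. The other complement genes called ranged from 0 to 1 in these last fits, the 1 being Vtn without NC3. The median log2 difference of the 9 genes was -0.44 with a pseudocount of 1, -0.94 with median-of-ratios scaling, -1.15 with voom, -1.56 over the 7 genes with 10 reads in every sample, and -1.67 (without NC3) to -0.57 (without NC2) with 1 sample left out. The number of the 9 whose groups do not overlap ranged from 3 to 7, all lower in HE, while the share of all genes tested that were lower without overlap rose from 17.9% to between 20% and 26.1%. Of the 5 genes most like C3, 3 were kept with a pseudocount of 1. The log2 difference of C3 ranged from -5.57 to -3.19 with 1 sample left out, that of Cfb from -0.44 to 0.16 and that of Cd59a from -0.44 to 0.08. Cd59b changed sign without NC3 (-0.06), HE1 (-0.26) or HE2 (-0.12) and reached 0.55 otherwise. The cause of these changes was not tested.

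The replicate numbers shared by NC and HE were used as a replicate block, which left 0 genes called and moved the genes with an unadjusted p-value under 0.05 from 2858 to 3184, and among the other complement genes from 6 to 8. Same-numbered samples deviated together only weakly, with correlations of 0.156, 0.087 and 0.060, although each sample correlated best with its own number, so the numbers were not taken to pair the samples. Depth limits Cfb, C2, Cd59a and the C1q chains, whose values rest on at most 53 reads per sample. It also limits C1s1, which had 11 reads in NC3 and 19, 11 and 15 reads in HE1, HE2 and HE3.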
